A study of Mus with 2 samples.

Results

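The cells described here were HSCs in which no Cd34 UMI, at least 1 Hlf UMI and a UMI for at most 1 of 7 platelet genes (Pf4, Itga2b, Gp1bb, Treml1, F2r, Gp5, Sdpr) were counted. A UMI, or unique molecular identifier, marks 1 captured RNA molecule. These 75 cells, called Cd34-negative Hlf-positive cells or members, were chosen by their own counts from 681 retained single cells, with 39 members among 263 Id2+/+ cells and 36 members among 418 Id2-deleted cells. Hlf, Cd34 and the platelet genes therefore describe the cells and are not findings, and every comparison of members with other cells is a description without a test.

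HSCs were sorted as LSK FLT3- CD150+ CD48- cells from the tibias and fibulas of Mx1-Cre; ID2+/+ and Mx1-Cre; ID2Δ/Δ mice aged 8 to 12 weeks, called Id2+/+ and Id2-deleted here. For each genotype 1000 cells pooled from 5 mice were captured with 10x Genomics Chromium as 1 library. Both genotypes carry Mx1-Cre, a recombinase switched on by interferon and induced in both with pIpC, an interferon inducer, so that deletion reaches hematopoietic cells and other interferon-responsive cells alike. One clause of the labels names Id2+/+ mice as the source of the Id2-deleted cells, but the sample was grouped by its title and genotype label, which both give the deletion. With 1 library per genotype there was no replicate check. All intervals are exact 95% intervals that cover counting error only.

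A few HSCs divide rarely and sustain blood formation for life, while most of the progeny that they produce lose self-renewal as they begin to cycle. In adult mice these long-term HSCs are enriched among cells with little CD34 on their surface. HLF is a PAR bZIP transcription factor of stem cells, and EPCR (encoded by Procr), MLLT3 and MECOM mark or maintain the same cells, whereas the cell cycle inhibitor p57 (Cdkn1c) is linked to their quiescence.

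Total depth was 8612217 UMIs for Id2+/+ and 17140713 UMIs for the Id2-deleted library. Cells were called from 4394 and 6178 UMIs upward, which left 333 and 625 barcodes after the mitochondrial limit, beside 383 and 686 cells analyzed per the labels. Another 70 and 207 cells with many hemoglobin, erythroid or neutrophil transcripts were left out. No barcode was shared between the libraries among the retained cells. Id2 was counted 99 times over all barcodes of the Id2+/+ library and 4 times in the Id2-deleted library, and within members 4 times and 0 times. A 3′ tag need not lie in the deleted region, so Id2 checks the labels only in part.

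The members were the shallowest of the 5 classes into which the rule divides the retained cells. Their median depth was 5461 UMIs (4712 to 9257) in the Id2+/+ library and 7429.5 UMIs (6210 to 10075) in the Id2-deleted library, with 2280 and 2695 genes detected. Cells with a Cd34 UMI but otherwise the same rule, called Cd34-positive Hlf-positive here, had medians of 6394.5 and 8956 UMIs. Cells with 2 or more platelet genes had 9040.5 and 11053. A class defined by a count of 0 takes in shallow cells more readily, and the part of depth in the differences described here was tested only by thinning each cell at random to 4300 UMIs.

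Members made up 14.8% of the retained Id2+/+ cells (39 of 263, 10.8 to 19.7%) and 8.61% of the retained Id2-deleted cells (36 of 418, 6.10 to 11.7%). When the rule was read on cells thinned to 4300 UMIs, the shares were 16.7% (44 cells, 12.4 to 21.8%) and 12.4% (52 cells, 9.43 to 16.0%). Over 20 random thinnings, a check added after the data had been seen, they ranged from 16.7 to 21.7% and from 10.8 to 16.0%. The share was thus lower in the Id2-deleted library in both readings, and the intervals of the libraries overlapped in both. Thinning does not undo the unequal limits of 4394 and 6178 UMIs from which cells were called. Among shallower barcodes that met the other limits, 7 of 41 and 29 of 133 met the rule. With cells called from 1000 UMIs and 500 genes in both libraries, the shares were 15.1% and 11.8%. At equal depth an Hlf UMI was found in 43.3% of Id2+/+ and 29.7% of Id2-deleted retained cells. Absence of Cd34 was nearly as common in one library as in the other, at 60.5% and 59.1%, and at most 1 platelet gene was found in 66.2% and 59.8%.

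**Figure D1:**
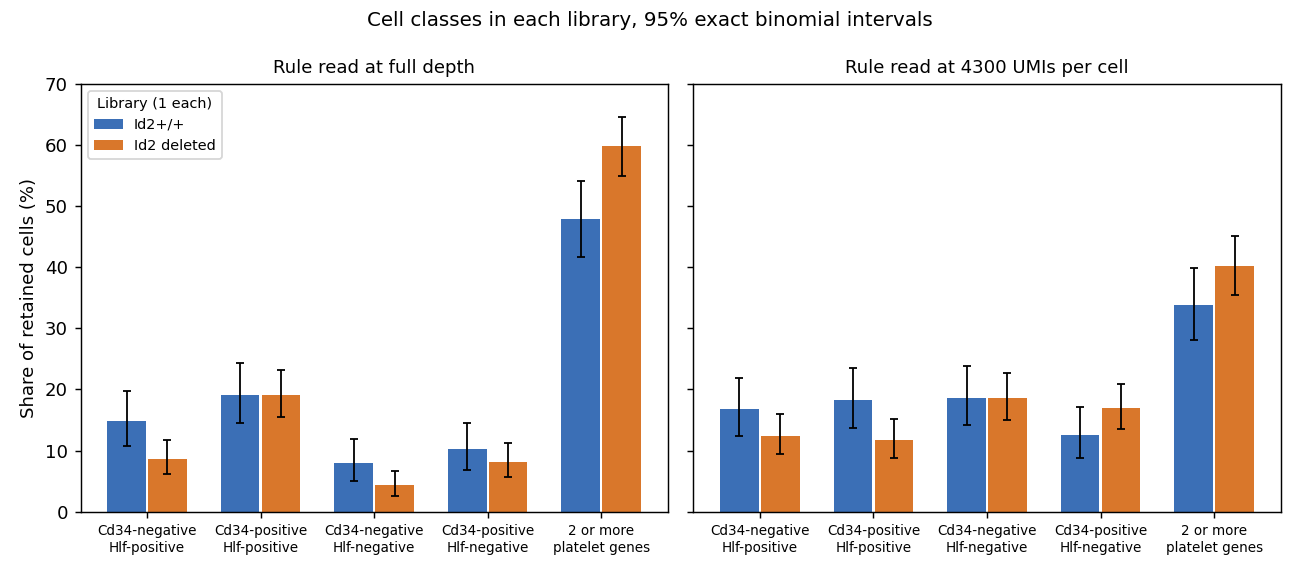
Share of retained cells (percent, vertical axis) in each of the 5 classes in the Id2+/+ (blue) and Id2-deleted (orange) libraries, read at each cell's own depth (left) and at 4300 UMIs per cell (right); bars are shares of 1 library each and error bars exact binomial 95% intervals. Members are the leftmost class, at 14.8% and 8.61% on the left and 16.7% and 12.4% on the right.

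Hlf counts in members were low. In the Id2+/+ library 21 members had 1 Hlf UMI, 11 had 2 and 7 had 3 or more, with a highest count of 4. In the Id2-deleted library the numbers were 15, 12 and 9, with a highest count of 6. Summed over members, Hlf stood at 281 and 276 CPM, that is UMIs of the gene per 1000000 UMIs of the same cells. Just outside the rule lay 21 and 18 cells that lacked Hlf alone, and 25 and 30 cells with exactly 1 Cd34 UMI. No platelet gene was found in 21 of 39 and 12 of 36 members. Where 1 was found it was most often Pf4, in 8 and 10 members. Cells with exactly 2 platelet genes that otherwise met the rule numbered 10 in each library.

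The label of these cells as stem cells was checked against 5 markers outside the rule. Procr encodes the surface receptor EPCR (GRCm38 chr2:155751125-155755478). It stood at 139 CPM in Id2+/+ members and 162 CPM in Id2-deleted members, against 49.8 and 38.1 CPM in the other retained cells, ratios of 2.78 (1.81 to 4.17) and 4.25 (2.98 to 5.95). The transcription elongation factor gene Mllt3 (chr4:87769925-88033407) stood at 320 and 243 CPM, 3.71 (2.79 to 4.90) and 3.05 (2.31 to 3.98) times the level in the other cells. Ifitm1, an interferon-inducible membrane protein gene with near-identical relatives whose reads may be split, stood at 2368 and 2290 CPM, 2.87 and 2.71 times the other cells. These 3 genes were therefore above the rest of the sort in both libraries, with intervals that excluded 1.

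Sult1a1 (chr7:126672865-126690443) encodes a sulfotransferase. It stood at 95.2 and 77.3 CPM in members against 15.3 and 6.87 CPM in the other cells, ratios of 6.23 (3.44 to 11.1) and 11.3 (6.15 to 20.2). Over the alternatives its log2 ratio ran from 0.79 to 2.90 in the Id2+/+ library and from 1.61 to 4.88 in the Id2-deleted library. About 27.3% and 28.6% of its UMIs came from the single highest member of each library. Meg3, a maternally expressed long noncoding RNA, was uneven among cells. It was found in 9 of 39 Id2+/+ members at 156 CPM and in 2 of 36 Id2-deleted members at 25.8 CPM, where 1 cell held 5 of the 7 UMIs. These levels were 5.26 (3.38 to 8.09) and 14.5 (4.49 to 45.9) times those in the other cells. All 5 markers were higher in members than in the other cells of the same library. The marker names were supplied with the rule and came from earlier work on these same cells, so their direction is no independent evidence.

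Detection was also compared at equal depth. At 4300 UMIs per cell Sult1a1 was detected in 28.2% (11 of 39) and 22.2% (8 of 36) of members and in 10.0% (5 of 50) and 1.25% (1 of 80) of Cd34-positive Hlf-positive cells. Mllt3 was detected in 56.4% and 66.7% of members against 36% and 35%. Procr did not separate these classes in the Id2+/+ library, at 38.5% against 42.0%, and was found in 50% against 33.8% in the Id2-deleted library. In the hemoglobin-, erythroid- or neutrophil-rich cells that had been left out, thinned alike, Procr was found in none of 70 and none of 207, with upper bounds of 5.13% and 1.77%, which limit the share of cells with a UMI and not of cells expressing the gene. Ifitm1 was found in 15.7% and 11.1% of them, and in 97.4% and 100% of members. Free RNA was estimated from hemoglobin UMIs at no more than 11.7% and 7.61% of the members' UMIs.

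**Figure D2:**
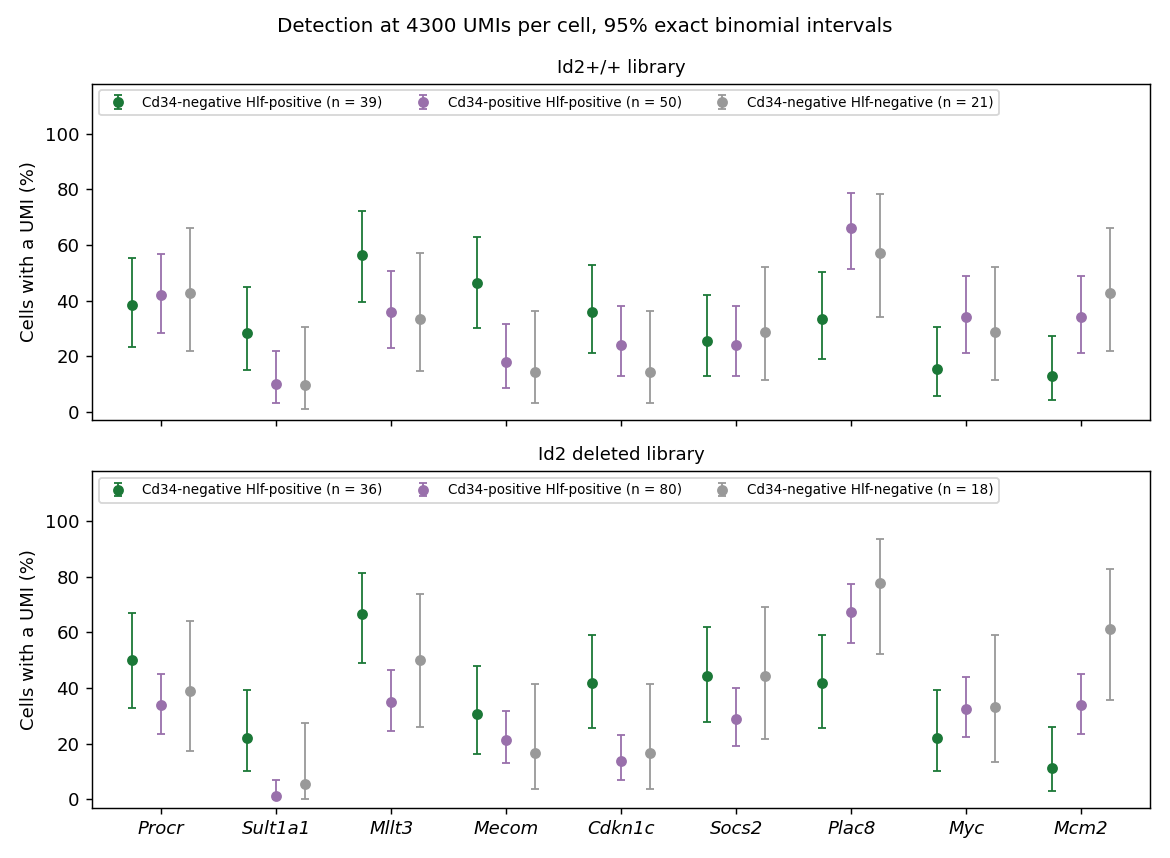
Percent of cells with at least 1 UMI of each gene (vertical axis) at 4300 UMIs per cell in Cd34-negative Hlf-positive (green), Cd34-positive Hlf-positive (purple) and Cd34-negative Hlf-negative (grey) cells of the Id2+/+ (top) and Id2-deleted (bottom) libraries, 1 library each; points are shares and bars exact binomial 95% intervals. Sult1a1 and Mllt3 lie highest in the green class, and Plac8 and Mcm2 lowest.

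Genes of the surface proteins used in the sort were then read in members. Kit, the stem cell factor receptor gene, stood at 143 and 121 CPM, and Ly6a (Sca-1) at 113 and 110 CPM. Slamf1 (CD150) was low at 30.3 and 40.5 CPM. Cd48 stood at 8.66 and 0 CPM and Flt3 at 13 and 11 CPM. The lineage genes Cd3e, Cd4, Cd8a, Itgam, Ly6g and Il7r had no UMI in members of either library.

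Across all genes with at least 20 UMIs, a gene was called when its CPM in members was at least 1.5-fold above, or 1.5-fold below, that of the other retained cells in each of the libraries. Of 8476 genes, 756 (8.92%) were called higher in members and 507 (5.98%) lower. Of 35 stem cell identity genes compared, 7 were called higher and none lower. Of these 7, 4 were the supplied markers Procr, Mllt3, Sult1a1 and Ifitm1, whose direction is no independent evidence. Summed, the 38 genes of that list stood at 1.63 (1.56 to 1.71) and 1.65 (1.59 to 1.72) times the other cells. Ifitm1 alone held 2368 of the 10000 CPM of the list in Id2+/+ members and 2290 of 9059 CPM in Id2-deleted members. Besides the markers the called genes included Mecom (chr3:29951296-30509759), a transcription factor required for HSC maintenance. Mecom stood at 139 and 99.4 CPM, 4.07 (2.59 to 6.27) and 2.80 (1.79 to 4.23) times the other cells. In the Id2-deleted library it came inside 1.5-fold, at a log2 ratio of 0.56, under at least 1 alternative. Pdzk1ip1 stood at 1.87 and 2.17 times and Socs2, a feedback inhibitor of cytokine signaling, at 2.79 and 2.50 times. Meis1, a homeobox partner of HOX proteins, was not called, with ratios of 1.03 and 1.27.

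Of 27 quiescence regulators compared, 7 were called higher and 1 lower, against 8.92% and 5.98% over all genes. Cdkn1c (chr7:143458339-143461059), which encodes p57, stood at 117 and 95.7 CPM, 3.25 (2.01 to 5.11) and 3.02 (1.91 to 4.61) times the other cells. Ndn, encoding the growth suppressor necdin, stood at 2.07 and 2.71 times. Txnip, an inhibitor of thioredoxin and of glucose uptake, stood at 1.60 and 2.41 times. The list summed to 1.24 (1.12 to 1.37) and 1.36 (1.24 to 1.49) times the other cells. Against Cd34-positive Hlf-positive cells alone 1 of 12 was called higher and none lower, beside 1.64% over all genes. The sums there were 1.09 (0.96 to 1.24) and 1.31 (1.17 to 1.46) times. Against Cd34-negative Hlf-negative cells 1 of 8 was called higher and none lower, beside 2.37% higher over all genes. Those sums were 1.02 (0.87 to 1.19) and 1.34 (1.15 to 1.57) times. Eligible genes outside the rule, with a mean of at least 50 CPM over members and other cells, were ranked. The rank was set by the library with the smaller absolute log2 ratio. The highest were Mllt3, Cdkn1c, Mecom, Procr, Ifitm1, Zfp467, Cd74, Socs2, Hacd4 and Mettl7a1. Under at least 1 alternative each, Mecom and Hacd4 in the Id2-deleted library and Cd74 in the Id2+/+ library came inside 1.5-fold. Their lowest log2 ratios were 0.56, 0.46 and 0.45. Of the Cd74 UMIs in Id2-deleted members, 60.4% came from 1 cell.

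Summed cell cycle lists were lower in members than in the other retained cells. Of 42 S phase genes, 30 were called lower and none higher. Of 48 G2/M genes, 31 were called lower and none higher. The S phase list summed to 1498 and 1848 CPM in members, 0.40 (0.36 to 0.45) and 0.45 (0.41 to 0.49) times the other cells. The G2/M list stood at 0.46 (0.42 to 0.51) and 0.42 (0.39 to 0.46) times. Mcm2, a subunit of the replicative helicase, stood at 39 and 47.9 CPM against 209 and 181 CPM in the other cells, ratios of 0.19 (0.085 to 0.36) and 0.26 (0.14 to 0.45). Ccnb2, the mitotic cyclin B2 gene, was counted 2 and 4 times, with ratios of 0.094 (0.011 to 0.35) and 0.14 (0.038 to 0.36). The chromatin protein gene Hmgb2 stood at 273 and 272 CPM against 812 and 958 CPM. The 10 lowest by the same ranking were Ccnb2, 2810417H13Rik, Cdca8, Hist1h2ap, Mcm2, Lig1, Ube2c, Birc5, Rap1b and Hmgb2, most of which serve DNA replication or mitosis. In the Id2-deleted library all but Rap1b came inside 1.5-fold with no cell types left out, between -0.57 for Ccnb2 and -0.11 for 2810417H13Rik on the log2 scale, with Mcm2 at -0.45. In the Id2+/+ library Lig1 and Birc5 came inside 1.5-fold under at least 1 alternative each, at -0.33 and -0.49. A Mki67 or Top2a UMI was found, at the cells' own depths, in 15.4% (6 of 39) of Id2+/+ members against 40.6% (91 of 224) of the other cells, and in 50% (18 of 36) of Id2-deleted members against 51.3% (196 of 382). Among the classes of other cells the share ran from 28.6% (6 of 21) of Cd34-negative Hlf-negative cells to 46.0% (58 of 126) of cells with at least 2 platelet genes in the Id2+/+ library. In the Id2-deleted library it was 36.2% (29 of 80) and 29.4% (10 of 34) in the Cd34-positive classes with and without Hlf, below members, and 61.1% (11 of 18) and 58.4% (146 of 250) in Cd34-negative Hlf-negative and platelet gene cells, above members.

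Mcm2 was rarer in members at equal depth too. At 4300 UMIs per cell Mcm2 was detected in 12.8% and 11.1% of members against 46.4% and 45.3% of the other retained cells. Free RNA carries these transcripts, and its estimated upper share of the S phase level was 832 of 1498 CPM and 508 of 1848 CPM. Not every growth gene was low. Ccnd2, encoding cyclin D2, which acts early in G1, stood at 571 and 523 CPM, 1.75 (1.44 to 2.11) and 1.35 (1.13 to 1.61) times the other cells. Mycn stood at 1.58 (1.19 to 2.08) and 1.32 (1.02 to 1.68) times, whereas Myc stood at 0.34 (0.17 to 0.61) and 0.63 (0.40 to 0.95) times and the G1 kinase gene Cdk6 at 0.28 (0.13 to 0.55) and 0.53 (0.32 to 0.84) times.

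Other lists were compared with the remaining cells, where 8.92% of all genes were called higher and 5.98% lower. Of 35 interferon response genes, 13 were called higher and none lower, while against Cd34-positive Hlf-positive cells alone none of 18 was called, with sums of 1.30 (1.18 to 1.43) and 1.07 (0.99 to 1.16) times. Irf1, an interferon-induced transcription factor, stood at 2.48 (1.51 to 3.94) and 2.21 (1.29 to 3.58) times the other cells, and Irgm1, an immunity-related GTPase, at 2.49 (1.5 to 4.0) and 2.25 (1.41 to 3.46) times. Of 33 lysosome and autophagy genes, 5 were called higher and none lower, and the list summed to 1.30 and 1.25 times. Nuclear oxidative phosphorylation genes summed to 0.82 (0.79 to 0.84) and 0.78 (0.76 to 0.80) times, although only 4 of 79 were called, all lower, a share near that over all genes. The 13 mitochondrially encoded genes of the same enzyme complexes stood the other way, at 1.09 (1.06 to 1.12) and 1.21 (1.18 to 1.24) times. Of 24 activation and early progenitor genes 2 were called higher and 6 lower.

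**Figure D3:**
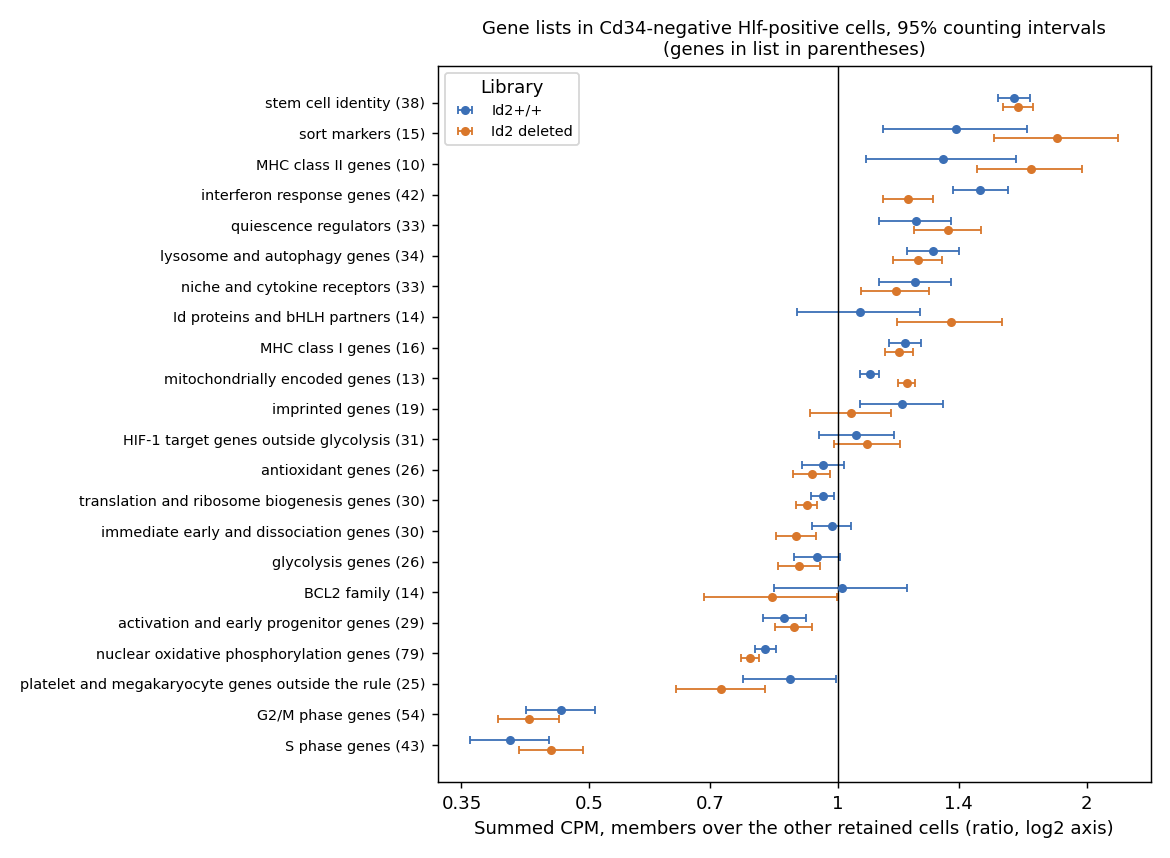
Ratio of summed CPM (log2 horizontal axis) in members over the other retained cells for each gene list, in the Id2+/+ (blue) and Id2-deleted (orange) libraries, 1 library each; points are ratios, bars exact 95% counting intervals, and numbers in parentheses the genes of the list. S phase and G2/M lists lie between 0.40 and 0.46 in both libraries, and stem cell identity at 1.63 and 1.65.

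Cd34-positive Hlf-positive cells differ from members by the Cd34 criterion alone. Of 4276 genes compared, 70 (1.64%) were called higher in members in both libraries and 70 (1.64%) lower. Sult1a1 stood at 3.23 (1.47 to 7.64) and 11.5 (4.21 to 39) times the Cd34-positive level. Mllt3 stood at 2.65 (1.79 to 3.98) and 2.51 (1.77 to 3.55) times and Cdkn1c at 1.98 (1.07 to 3.73) and 2.45 (1.39 to 4.31) times. In contrast, Procr stood at 1.27 (0.77 to 2.10) times in the Id2+/+ library and 2.15 (1.41 to 3.25) times in the Id2-deleted library, an interval that excluded 1 in the latter. Among 29 stem cell identity genes 4 were called higher and none lower. Of the 4, 2 were supplied markers. The ranking for this class was led by Sult1a1, Mllt3, Gga1, Dok1 and Cdkn1c.

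Genes lower in members than in Cd34-positive Hlf-positive cells were led by Mcm2 and Plac8. Plac8 (chr5:100551589-100572253), which is expressed in myeloid and lymphoid progenitors, stood at 130 and 184 CPM against 377 and 452 CPM, ratios of 0.34 (0.22 to 0.52) and 0.41 (0.30 to 0.55). Of 22 S phase genes 5 were called lower and none higher, and of 19 activation and early progenitor genes 4 were called lower and none higher, against 1.64% over all genes in either direction. The S phase list summed to 0.68 (0.59 to 0.77) and 0.65 (0.59 to 0.72) times the Cd34-positive level. The G2/M list summed to 0.84 (0.75 to 0.95) and 0.65 (0.59 to 0.72) times that level, with 2 of 14 genes called lower and none higher. The median cell held 1420 CPM of S phase transcripts in Id2+/+ members and 1594 CPM in Id2-deleted members, against 1679 and 1968 CPM in Cd34-positive cells. The highest members reached 3154 and 5884 CPM and the highest Cd34-positive cells 6288 and 8492 CPM.

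Cd34-negative Hlf-negative cells differ from members by the Hlf criterion alone and numbered 21 and 18. Of 2822 genes, 67 (2.37%) were called higher in members and 98 (3.47%) lower. Sult1a1, Tm2d2, Mllt3 and Mecom led the higher genes, Mllt3 at 2.64 (1.54 to 4.78) and 2.13 (1.30 to 3.63) times and Mecom at 2.16 (1.01 to 5.14) and 3.20 (1.29 to 9.48) times. Of 28 stem cell identity genes 6 were called higher and none lower, and of 14 S phase genes 9 were called lower and none higher. Of the 6 stem cell identity genes, 2 were supplied markers. Plac8 stood at 0.24 (0.15 to 0.38) and 0.30 (0.21 to 0.42) times, and Crip1, a LIM domain protein gene of differentiating blood cells, at 0.22 (0.14 to 0.35) and 0.33 (0.25 to 0.42) times. The S phase list summed to 0.49 (0.43 to 0.57) and 0.43 (0.38 to 0.48) times the Hlf-negative level. A single cell of 46144 UMIs held 23.9% of the Id2-deleted Hlf-negative UMIs, and without it, left out after the data had been seen, the second ratio was 0.63 (0.55 to 0.71). Markers of other cell types also differed between the classes. B cell markers summed to 392 CPM in Id2+/+ Hlf-negative cells against 64.9 CPM in members. Macrophage markers summed to 683 CPM in Id2-deleted Hlf-negative cells against 40.5 CPM in members, and erythroid markers to 4826 against 3033 CPM, or 2204 CPM without the deepest cell. Their part in the differences was not tested.

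The genotypes were then compared within members, Id2-deleted over Id2+/+, as 36 against 39 cells. Of 3885 genes with at least 20 UMIs, 438 (11.3%) were at least 1.5-fold higher and 521 (13.4%) at least 1.5-fold lower. The 95% counting interval excluded 1 for 185 genes above and 199 below. Median-of-ratios scaling moved every log2 ratio up by 0.10 and the shares to 15.3% higher and 9.65% lower, so the balance of directions depends on the scaling, and directions of lists are given relative to all genes compared, whose median log2 ratio was 0.02. Composition differed too. Members with Xist and no Y-linked UMI numbered 11 of 39 and 20 of 36, and those with a Y-linked and no Xist UMI 14 of 39 and 6 of 36. Library, pool of mice and genotype cannot be told apart.

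Many immediate early and dissociation genes were lower in Id2-deleted members. Of 17 compared, 11 were past 1.5-fold lower and none higher, against 13.4% and 11.3% over all genes, with a median log2 ratio of -0.71. Fos (chr12:85473890-85477274), a subunit of AP-1, stood at 316 CPM in Id2+/+ members and 55.2 CPM in Id2-deleted members, a ratio of 0.17 (0.093 to 0.31). It was found in 24 of 39 and 11 of 36 cells. Jun, its partner in AP-1, stood at 589 and 210 CPM, a ratio of 0.36 (0.26 to 0.49), and the phosphatase gene Dusp1 at 182 and 40.5 CPM, a ratio of 0.22 (0.10 to 0.44). Egr1 stood at 77.9 and 25.8 CPM, with a log2 ratio that came inside the fold, at -0.30, in cells with Xist only. Of the heat shock genes in the list, Hspa8 stood at 0.95 (0.85 to 1.06), Hsp90aa1 at 1.06 (0.87 to 1.29) and Dnajb1, which was past the fold, at 0.63 (0.32 to 1.23) times.

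Per cell, the list summed to a median of 6592 CPM (2891 to 11255) in Id2+/+ members and 4407 CPM (3012 to 6607) in Id2-deleted members, so that the cells overlapped, and 18 Id2+/+ members lay above the highest Id2-deleted member. The difference was not confined to members. Fos stood at 184 and 34.6 CPM in the other retained cells, Jun at 594 and 177 CPM and Dusp1 at 119 and 32.8 CPM. These genes respond to tissue handling as well as to signals in the marrow, and a difference in handling between the libraries was not tested.

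**Figure D4:**
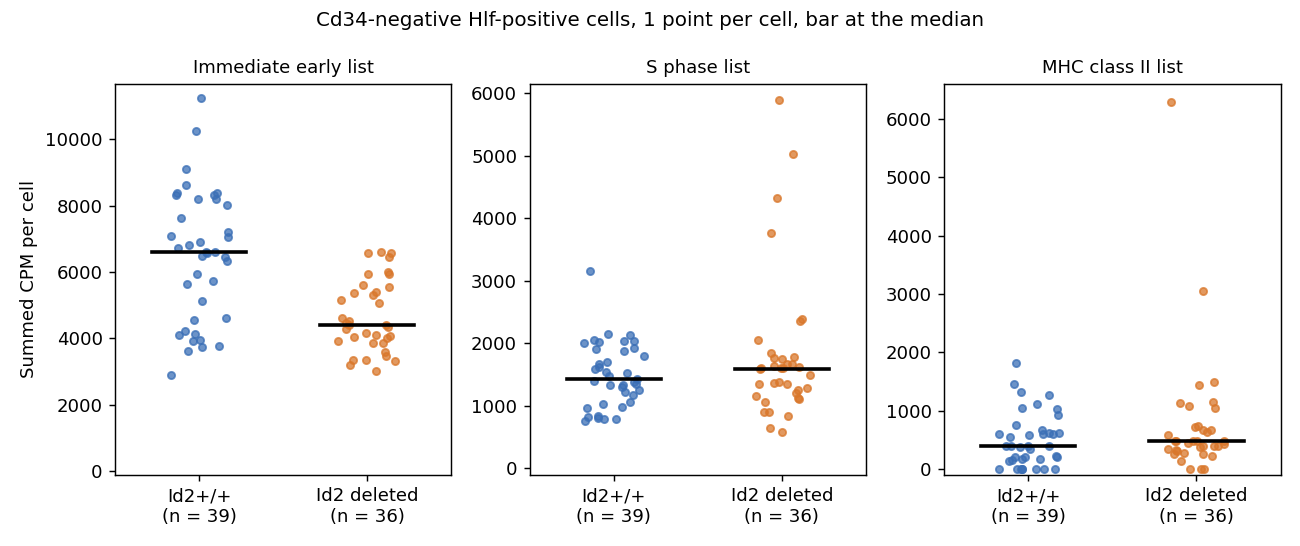
Summed CPM per cell (vertical axes) of the immediate early, S phase and MHC class II lists in 39 Id2+/+ (blue) and 36 Id2-deleted (orange) members; each point is 1 cell and each bar a median. The immediate early medians are 6592 and 4407 CPM, 4 Id2-deleted cells stand above the highest Id2+/+ cell in S phase transcripts, and 1 Id2-deleted cell reaches 6295 CPM of MHC class II transcripts.

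Other genes among the lowest ratios in Id2-deleted members were Rhob, Meg3, Fau, Ppp1r15a, Pgk1, Mtif2 and Mcl1. Meg3 stood at a ratio of 0.17 (0.062 to 0.38), yet it was also lower in the other cells, at 29.6 and 1.77 CPM. Requiring at least 2 Hlf UMIs turned its direction. Ppp1r15a came inside the fold, at a log2 ratio of -0.33, in cells with a Y-linked UMI only. Mcl1, an antiapoptotic gene, stood at 90.9 and 25.8 CPM. Fau and Pgk1 have near-identical copies, and their counts are uncertain. Of 31 stem cell identity genes 2 were past 1.5-fold higher and 5 lower, against 11.3% and 13.4% over all genes, with a median log2 ratio of -0.14 that was 0.19 in cells with Xist only, -0.57 in cells with a Y-linked UMI only and -0.55 with no cell types left out. Past the fold upward were Hoxa7, a homeobox gene, at 2.13 (0.78 to 6.69) times and Nupr1, a stress-induced regulator, at 1.59 (0.63 to 4.34) times. The endothelial-type adhesion gene Esam and the ETS factor gene Erg each stood at 173 and 84.7 CPM, a ratio of 0.49 (0.28 to 0.84). Gata2 stood at 0.62 (0.41 to 0.94) times. Procr, Mllt3 and Ifitm1 had intervals that included 1, at 1.17 (0.72 to 1.91), 0.76 (0.54 to 1.07) and 0.97 (0.86 to 1.09) times.

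Sox4 (chr13:28948919-28953699), an SRY-box transcription factor of progenitors, was higher in Id2-deleted members. It stood at 229 CPM in Id2+/+ members and 464 CPM in Id2-deleted members, a ratio of 2.02 (1.46 to 2.84). In the other retained cells it stood at 307 and 219 CPM. Members stood at 0.75 (0.55 to 0.99) times the other cells in the Id2+/+ library and at 2.12 (1.75 to 2.56) times in the Id2-deleted library. The Id2+/+ direction turned in members with no platelet gene UMI and in cells with Xist only, with log2 ratios of 0.18 and 0.59. At 4300 UMIs per cell Sox4 was detected in 48.7% and 72.2% of members and in 62.1% and 57.6% of the other cells. The genotype log2 ratio of 1.01 was 0.19 in members without any platelet gene UMI, 0.52 with no cell types left out, 0.70 when the rule was read on thinned cells, and 1.74 in members with at least 2 Hlf UMIs.

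The genes with the highest ratios were Cpsf2, Bag5, Wapl, Commd8, Sec13, Sept1, Baz1b, Rpf1, Chaf1b and 4933434E20Rik. All but Bag5, Wapl and Sept1 came inside 1.5-fold under at least 1 alternative, with lowest log2 ratios from -0.075 for Rpf1 and 0.28 for Commd8 to 0.55 for Baz1b. Sept1, which encodes a septin of the cytoskeleton, had the most UMIs of these and stood at 64.9 and 206 CPM, a ratio of 3.17 (1.77 to 6.04). It was found in 13 of 39 and 27 of 36 cells. Wapl, which releases cohesin from chromatin, stood at 21.6 and 81.0 CPM, a ratio of 3.74 (1.38 to 12.6). The intervals were wide because most of these genes had 5 to 7 UMIs in Id2+/+ members.

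The S phase list summed higher in Id2-deleted members, with 4 of these cells above every Id2+/+ member. Of 16 S phase genes compared, 6 were past 1.5-fold higher and 2 lower, against 11.3% and 13.4% over all genes. The median log2 ratio was 0.23 and ran from 0.02 to 0.92 over the alternatives, past 1.5-fold at its upper end. The summed ratio was 1.23 (1.07 to 1.42). Mcm5, a subunit of the replicative helicase, stood at 21.6 and 77.3 CPM, a ratio of 3.57 (1.31 to 12.1), and Mcm6 at 108 and 202 CPM, a ratio of 1.87 (1.15 to 3.13). Of 12 G2/M genes 1 was past 1.5-fold higher and none lower, and the list summed to 1.04 (0.92 to 1.18) times. Cdk1 and Top2a, each counted 2 and 14 times, fell below the 20 UMIs required of compared genes. The ratio was 5.95 (1.37 to 54.0) for either gene, at levels where free RNA alone allowed up to 30.6 and 25.4 CPM of Cdk1. For Top2a the log2 ratio was 0.18 when the rule was read on thinned cells. For Mcm5 it was 1.73 with 0.5 added to both counts, 0.52 with at least 2 Hlf UMIs, 0.89 with the rule read on thinned cells and 4.59 with the empty droplet profile subtracted. A Mki67 or Top2a UMI was found in 6 of 39 and 18 of 36 members at their own depths, which were greater in the Id2-deleted library. In the S phase list 4 Id2-deleted members stood above the highest Id2+/+ member and held 154 of the 502 UMIs. Without these 4, left out after the data had been seen, the list stood at 1454 against 1498 CPM, a ratio of 0.97 (0.83 to 1.13), and 2 of 12 genes were past the fold higher and 3 lower. The 4 were chosen by their S phase sums and from 1 library only, so a lower ratio was built into their removal. Their removal therefore cannot decide whether the difference holds in the remaining cells.

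MHC class II genes present peptides to CD4+ T cells. Of 5 compared between genotypes, 3 were past 1.5-fold higher in Id2-deleted members and none lower, against 11.3% higher over all genes, with a median log2 ratio of 0.62. That median was inside the fold at 0.26 with the rule read on thinned cells, 0.33 in cells with Xist only, 0.22 with no cell types left out, 0.42 with cells called from 1000 UMIs and 500 genes and 0.58 with genes of at least 1 UMI. H2-Ab1 stood at 47.6 and 121 CPM, a ratio of 2.55 (1.26 to 5.59), and H2-DMa at 147 and 228 CPM, a ratio of 1.55 (1.0 to 2.43). The list summed to 468 and 751 CPM, 1.61 (1.27 to 2.05) times. Without the 1 Id2-deleted member with the highest sum, left out after the data had been seen, the list stood at 601 CPM and the ratio at 1.29 (1.0 to 1.66). That cell held 29 of the 48 Cd74 UMIs. Cd74, which was not past the fold, stood at 126 and 177 CPM with it and at 71.8 CPM in Id2-deleted members without it, so its direction turned.

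Metabolic and interferon lists were compared in the same way, again beside 11.3% higher and 13.4% lower over all genes. Of 77 nuclear oxidative phosphorylation genes 3 were past 1.5-fold higher and 1 lower. Ratios above 1 were found for 58 of the 77, against 1993 of 3885 over all genes. The list had a median log2 ratio of 0.16 and a summed ratio of 1.12 (1.08 to 1.16). Of 17 glycolysis genes none was past 1.5-fold higher and 3 were lower, Pgk1, Hk1 and Gapdh, with a median log2 ratio of 0.16 that was -0.21 with no cell types left out. Gapdh stood at 649 and 427 CPM, a ratio of 0.66 (0.51 to 0.84), but came inside 1.5-fold, at a log2 ratio of -0.23, under at least 1 alternative. Ldha, the lactate dehydrogenase A gene, stood at 0.73 (0.59 to 0.90) times. Hif1a was low in both, at 26.0 and 33.1 CPM. Of 19 interferon response genes 1 was past 1.5-fold higher and 5 lower, with a median log2 ratio of -0.17 that was 0.27 in cells with Xist only. The GTPase gene Iigp1 stood at 134 and 62.6 CPM, a ratio of 0.47 (0.24 to 0.87), but its direction turned in cells with a Y-linked UMI only, at a log2 ratio of 0.34. Pml, a nuclear body gene linked to HSC quiescence, stood at 56.3 and 55.2 CPM, Vwf at 43.3 and 29.4 CPM, Ccnd2 at 571 and 523 CPM and Myc at 47.6 and 84.7 CPM, a Myc ratio of 1.78 (0.83 to 4.04).

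**Figure D5:**
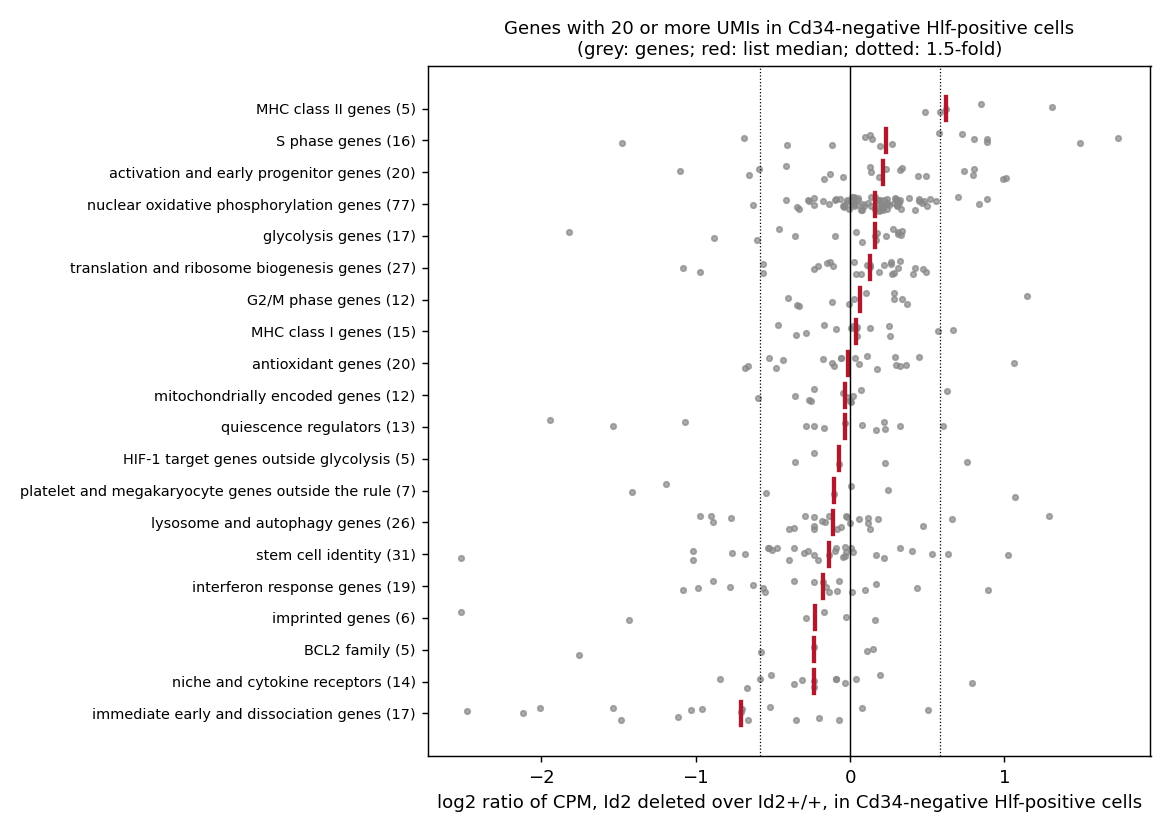
Log2 ratio of CPM in Id2-deleted over Id2+/+ members (horizontal axis) for the genes of each list with at least 20 UMIs; grey points are genes, red bars list medians, dotted lines 1.5-fold, and numbers in parentheses the genes compared. Among the lists drawn, which leave out cell type markers, immediate early and dissociation genes have the lowest median, -0.71, and MHC class II genes the highest, 0.62, against 0.02 over all genes compared.

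Markers of other cell types were also counted in members. The 10 neutrophil markers summed to 1147 CPM in Id2+/+ and 913 CPM in Id2-deleted members, with up to 881 and 326 CPM from free RNA. Elane stood at 173 and 77.3 CPM against up to 209 and 69.0 CPM, and Mpo at 268 and 69.9 CPM against up to 329 and 58.3 CPM. The 10 erythroid markers summed to 2978 and 3033 CPM against up to 1943 and 1506 CPM. The 7 B cell markers summed to 64.9 and 66.3 CPM, the 6 T and NK cell markers to 73.6 and 36.8 CPM and the 7 macrophage markers to 47.6 and 40.5 CPM. Stromal markers summed to 3 UMIs and 1 UMI. The part of these transcripts in the differences between the libraries was not tested.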

How the data were processed

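The authors deposited raw UMI counts per gene and barcode, 1 matrix per library, with no normalization; the submitters' processing notes name Cell Ranger 2.2.0 and mm10. No call of cells was used here other than the following. Barcodes with at least 10% of the UMIs of the 99th percentile of the 1000 deepest barcodes and under 10% mitochondrial UMIs were called cells. Cells with at least 10% hemoglobin UMIs, 1000 CPM of Klf1, Car1 and Epor, or 1% of Elane, Mpo, S100a8 and Ngp were left out. No doublet caller was run.

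UMIs were summed over cells per class and library and divided by total UMIs (CPM). Intervals at 95% were exact Poisson, exact conditional for ratios, and Clopper-Pearson for shares. Log2 ratios used 0.5 added to each count. Genes with at least 20 UMIs were compared. Free RNA in members was bounded from hemoglobin UMIs and the profile of barcodes with 1 to 100 UMIs. The members and gene lists were chosen with earlier results of these data known.

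Genes ranked for naming had a mean of at least 50 CPM, taking the 10 highest and 10 lowest. Cell class comparisons were ranked by the smaller of the 2 libraries' absolute log2 ratios, where both had the same sign. The genotype comparison was ranked by log2 ratio where the interval excluded 1. It also required a UMI in at least 10% of the members of the higher library. Ribosomal protein, mitochondrial, sex-linked and globin genes, neutrophil and erythroid markers, Gm and -ps symbols and, for cell classes, the rule's own genes were left out of the rankings. Genes of the fixed lists, the stem cell markers and genes that the study's single-cell comparison names were described besides, and a few of the genes so chosen are not reported here. Gene positions are those of RefSeq for GRCm38.p6. Scripts, tested on simulated data, used Python 3.11.15, NumPy 2.4.6, SciPy 1.17.1, pandas 2.3.3 and Matplotlib 3.10.9. The alternatives were other Hlf, platelet gene, depth, mitochondrial and cell type limits, other scalings, weights and gene filters, subtraction of the empty droplet profile, and cells of 1 sex.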

Additional observations from a re-analysis of the deposited data

Results flagged for a closer look

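Of 2966 genes at 50 CPM or more, 3 lay on opposite sides of the other retained cells in the members of the 2 libraries, each with both counting intervals excluding 1. The difference between libraries was not tested, as each genotype has 1 library. Sox4 stood in members at 0.746 (0.553 to 0.989) times the other cells in the Id2+/+ library and at 2.12 (1.75 to 2.56) times in the Id2-deleted library, and the Id2+/+ direction turned, to log2 ratios of 0.18 with no platelet gene UMI and 0.59 in cells with Xist only. Commd8, a COMM domain protein gene, stood at 0.431 (0.155 to 0.967) and 1.83 (1.17 to 2.75) times. Ilf2 stood at 1.62 (1.19 to 2.18) and 0.656 (0.433 to 0.957) times, with 229 and 103 CPM in members. Commd8 and Ilf2 were named for this pattern after their values were seen.

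Outside the retained cells, 7 barcodes of the Id2+/+ library and 29 of the Id2-deleted library lay under the depth limit and met every other criterion of the rule. They came from 41 and 133 such shallow barcodes, with median depths of 2571 and 4772 UMIs, and were not used in any comparison.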

How the results depend on the processing

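No paired analysis was possible because only 1 library stands for each genotype. The member share of 14.8% in the Id2+/+ library was 6.84% with at least 2 Hlf UMIs and 7.98% with no platelet gene UMI, and the 8.61% in the Id2-deleted library was 5.02% and 2.87%. The latter was 11.8%, beside 15.1% in the Id2+/+ library, with cells called from 1000 UMIs and 500 genes. The Id2-deleted share was 12.4% with the rule read on thinned cells. The highest of 20 thinnings gave 21.7% and 16.0%. With every gene of at least 1 UMI, 21.4% of genes were past the fold higher and 29.4% lower between genotypes, and 27.0% differed from the other retained cells, 12.3% from Cd34-positive Hlf-positive cells and 17.9% from Cd34-negative Hlf-negative cells, against 14.9%, 3.27% and 5.85%. Reading the rule on thinned cells gave 9.66% against the other cells and 1.63% against Cd34-positive cells. With no cell types left out the shares were 7.11% against Cd34-positive and 15.2% against Hlf-negative cells. Subtracting the empty droplet profile gave 4.93% against Cd34-positive cells. No platelet gene UMI gave 10.3% and cells with Xist only 13.5% against Hlf-negative cells.

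Directions turned in these log2 ratios, among others. Between genotypes, Meg3 was 0.18 with at least 2 Hlf UMIs, and Rpf1 was -0.075 and Iigp1 0.34 in cells with a Y-linked UMI only. The neutrophil marker median was 0.10 with no cell types left out and 1.49 with the empty droplet profile subtracted, and the erythroid median 0.58 with no cell types left out and 0.59 in cells with a Y-linked UMI only. Over the other retained cells, Sox4 in the Id2+/+ library was 0.18 with no platelet gene UMI and 0.59 in cells with Xist only, and Plac8 in the Id2-deleted library was 0.24 with no cell types left out and 0.55 in cells with a Y-linked UMI only. Printed list medians that were within the fold also changed sign, stem cell identity to 0.19 and interferon response to 0.27 in cells with Xist only and glycolysis to -0.21 with no cell types left out. So did the G2/M median of 0.06, which ran from -0.10 to 0.95 over the alternatives, past 1.5-fold at its upper end. The genotype ratios of Procr, Mllt3, Ifitm1, Sult1a1, Cdkn1c, Mecom, Cd74, Hif1a and Ccnd2 also changed sign under at least 1 alternative each. The cause was not tested. The immediate early median stayed between -1.02 and -0.60, the MHC class II median between 0.22 and 1.64 and the S phase median between 0.02 and 0.92. With 39 and 36 members, a gene at 20 UMIs in all allows no fold near 1.5 to be told from counting error.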
